A study of Mus musculus with 12 samples.

Results

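Fumarate hydratase, encoded in the mouse by Fh1, and 9 further enzymes that make fumarate or use its products were followed at the transcript level in mTEC, a mouse renal tubular epithelial cell line, after silencing of fumarate hydratase and after TGF-β1. The 10 genes were taken by name (Fh1, Sdha, Sdhb, Sdhc, Sdhd, Mdh1, Mdh2, Asl, Adsl and Got1) and matched through their Entrez identifiers, out of 15802 genes listed for all libraries. All 10 had enough reads to be tested, among 11707 tested genes. The study sequenced 12 mRNA libraries, with 3 in each of 4 groups: silenced cells (KD) and control cells (NC) without the cytokine, and silenced cells (KD+TGF-β1) and control cells (NC+TGF-β1) given TGF-β1, the cytokine that drives fibrosis of the kidney. All 4 groups are of the same line. The labels do not give the silencing reagent, its target sequence, or the dose and duration of TGF-β1, and they do not say whether replicates were separate cultures, so the p-values measure a spread that may be technical. The series asks how fumarate hydratase bears on renal fibrosis.

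Fumarate hydratase adds water to fumarate to give malate, in the mitochondrial tricarboxylic acid (TCA) cycle and also in the cytosol. Fumarate comes from succinate through succinate dehydrogenase in the inner mitochondrial membrane, and from the cytosolic lyases of the urea cycle and of purine synthesis. Malate dehydrogenases oxidise the malate to oxaloacetate, which aspartate aminotransferases exchange with aspartate in the malate-aspartate shuttle. Inherited loss of fumarate hydratase causes renal tumours in people.

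Library totals were 17651213 to 18462872 estimated counts. Principal component 1 (78% of the variance) separated the TGF-β1 libraries from the others, and NC replicate 1 stood apart on component 2, at 20 against -8.08 to 7.18 for the other 11 libraries. Of 14 tubular epithelial markers, 9 were expressed well enough to be tested (Cdh1, Epcam, Krt8, Krt18 and Cdh16 among them), whereas Lrp2, Slc34a1, Slc12a1, Umod and Aqp2, which mark nephron segments, had at most 13 counts in a library. The summed tubular markers had 99750 to 102731 counts in KD+TGF-β1, 93973 to 95463 in NC+TGF-β1, 70145 to 74029 in KD and 65261 to 70055 in NC libraries. Fibroblast (6), endothelial (4) and leukocyte (4) markers summed to at most 135, 71 and 69 counts in a library. Of these 14, 3 were tested, and they moved with TGF-β1 in KD and in NC cells, with Col1a1 and Cdh5 higher and Cd68 lower. Most tested genes were called in these comparisons (65.1% in KD and 64.2% in NC cells). Their part in the TGF-β1 results below was not tested. The 9 markers of pluripotent cells, Nanog among them, summed to 328 counts in KD+TGF-β1 replicate 1 and to 0 in each of the other 11 libraries. Changes of Fh1 with silencing that rest on that library are therefore also given without it. Those of Sdhc are given as a range over the alternative analyses, and calls lost without that library are named.

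Fh1 (Entrez 14194) fell with silencing in both settings, and further in the cells given TGF-β1. Its level was 28.5, 31.3 and 29.7 CPM (estimated counts scaled to the size of the library) in the KD libraries, against 51.3, 53.9 and 53.5 CPM in the NC libraries. In the TGF-β1 libraries it was 15, 13.7 and 13.8 CPM in KD+TGF-β1, against 49.6, 49.7 and 49.4 CPM in NC+TGF-β1. Every silenced library lay below every control library of its setting, and every KD+TGF-β1 library lay below every KD library. Of all tested genes, 22.7% had no overlap in either direction in KD against NC. The share was 32.2% in KD+TGF-β1 against NC+TGF-β1 and 72.9% in KD+TGF-β1 against KD. These values rest on 526 to 578 estimated counts in KD, 917 to 992 in NC, 240 to 265 in KD+TGF-β1 and 860 to 879 in NC+TGF-β1.

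**Figure D1:**
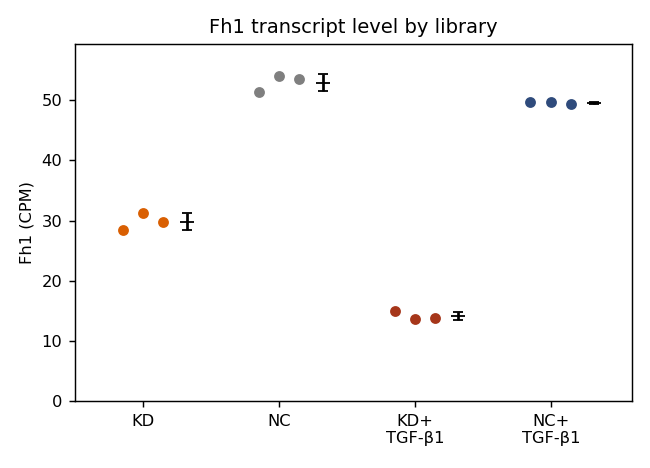
Fh1 in CPM (y axis) in each library of the 4 groups (x axis), with points for libraries and a bar for the mean and SD of 3 libraries. The silenced libraries sit at 28.5 to 31.3 CPM without and 13.7 to 15 CPM with TGF-β1, below all control libraries at 49.4 to 53.9 CPM.

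The log2 change of Fh1 was -0.83 in KD against NC (SE 0.0452, adjusted p = 6.47e-07), leaving 56.4% of the control level with a 95% interval of 52.7 to 60.3%. In KD+TGF-β1 against NC+TGF-β1 it was -1.81 (SE 0.0509, adjusted p = 8.95e-11), leaving 28.6% (26.5 to 30.8%). Adjusted p-values are from edgeR's quasi-likelihood test with Benjamini-Hochberg adjustment over all 11707 genes. Fh1 had the smallest p of all tested genes in each of these comparisons, and ranked 46 by lowest log2 change in KD against NC and 9 in KD+TGF-β1 against NC+TGF-β1. The difference between the changes, the interaction, was -0.98 (SE 0.0687, 95% interval -1.13 to -0.83, adjusted p = 8.18e-06), and it ranged from -1.02 to -0.94 over the 19 alternative analyses that could give it. Without the library that holds pluripotency markers, KD+TGF-β1 replicate 1, the change with TGF-β1 was -1.85 and the interaction -1.02, and without NC replicate 1 the change in KD against NC was -0.85. In bulk RNA, a lower level in every cell cannot be told apart from fewer cells that carry the transcript.

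TGF-β1 moved Fh1 in silenced cells: KD+TGF-β1 stood at 47.5% of the level in KD (log2 change -1.07, SE 0.0532, adjusted p = 4.22e-10). In control cells the change was -0.09 (SE 0.0432, 95% interval -0.19 to -0.00, adjusted p = 0.072), which did not pass. The NC+TGF-β1 libraries all lay below the NC libraries, where 65.9% of all tested genes had no overlap in either direction. These 2 comparisons cross the deposited tables, 1 of basal and 1 of TGF-β1 libraries, so TGF-β1 and the table, with any difference between the experiments behind it, cannot be told apart. This holds for the interaction and for every TGF-β1 comparison below. Each gene's transcripts were summed, and Fh1 has 1 transcript row in each table.

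Fh1 also changed its place among the enzymes. In TPM, a unit of transcript abundance that accounts for transcript length and so allows genes to be compared, Fh1 averaged 34.1 ± 1.74 in KD and 59.8 ± 1.58 in NC (SD, n = 3 each). It averaged 16.1 ± 0.942 TPM in KD+TGF-β1 and 56.2 ± 0.235 TPM in NC+TGF-β1. It was the lowest of the 10 genes in both silenced groups, rank 9 in NC and rank 8 in NC+TGF-β1. Its rank 9 in NC was within the spread of Asl (60.7 ± 1.12 TPM), and its rank 8 in NC+TGF-β1 within that of Asl (56.3 ± 1.89 TPM) and Got1 (55.4 ± 4.69 TPM). Among all tested genes, Fh1 stood at percentile 64.1 in KD, 78 in NC, 44 in KD+TGF-β1 and 77 in NC+TGF-β1.

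Mdh2, the mitochondrial malate dehydrogenase, was the highest of the 10 in every group, at 775 ± 28.3 TPM in KD, 764 ± 28 in NC, 830 ± 20 in KD+TGF-β1 and 838 ± 21.1 in NC+TGF-β1. Mdh1, the cytosolic malate dehydrogenase, was second, with 158 ± 3.35 TPM in KD and 161 ± 2.68 TPM in NC. Below it in both came the succinate dehydrogenase subunits Sdhd, Sdhb and Sdhc, then Sdha, Got1 and Asl. Sdhb and Sdhc overlap in KD and in NC, Sdhd overlaps with Sdhb in KD, and Sdha (84.6 ± 1.37 TPM) overlaps with Got1 (83 ± 3.84 TPM) in NC (SD, n = 3 each). In KD+TGF-β1, Sdhb (127 ± 6.11 TPM) overlaps with Mdh1 (135 ± 3.4 TPM) above it and with Sdhd (120 ± 4.84 TPM) below it. In NC+TGF-β1, Sdhc (113 ± 2.85 TPM) overlaps with Sdhd (113 ± 2.34 TPM). The ratio of Mdh2 to Fh1 in TPM was 22.8 ± 0.329 in KD and 12.8 ± 0.556 in NC, and 51.6 ± 3.29 in KD+TGF-β1 and 14.9 ± 0.435 in NC+TGF-β1 (SD, n = 3 each). The ratio of Adsl to Fh1 was 1.11 ± 0.0429 in KD and 0.584 ± 0.0421 in NC, and 1.89 ± 0.047 in KD+TGF-β1 and 0.557 ± 0.0202 in NC+TGF-β1.

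**Figure D2:**
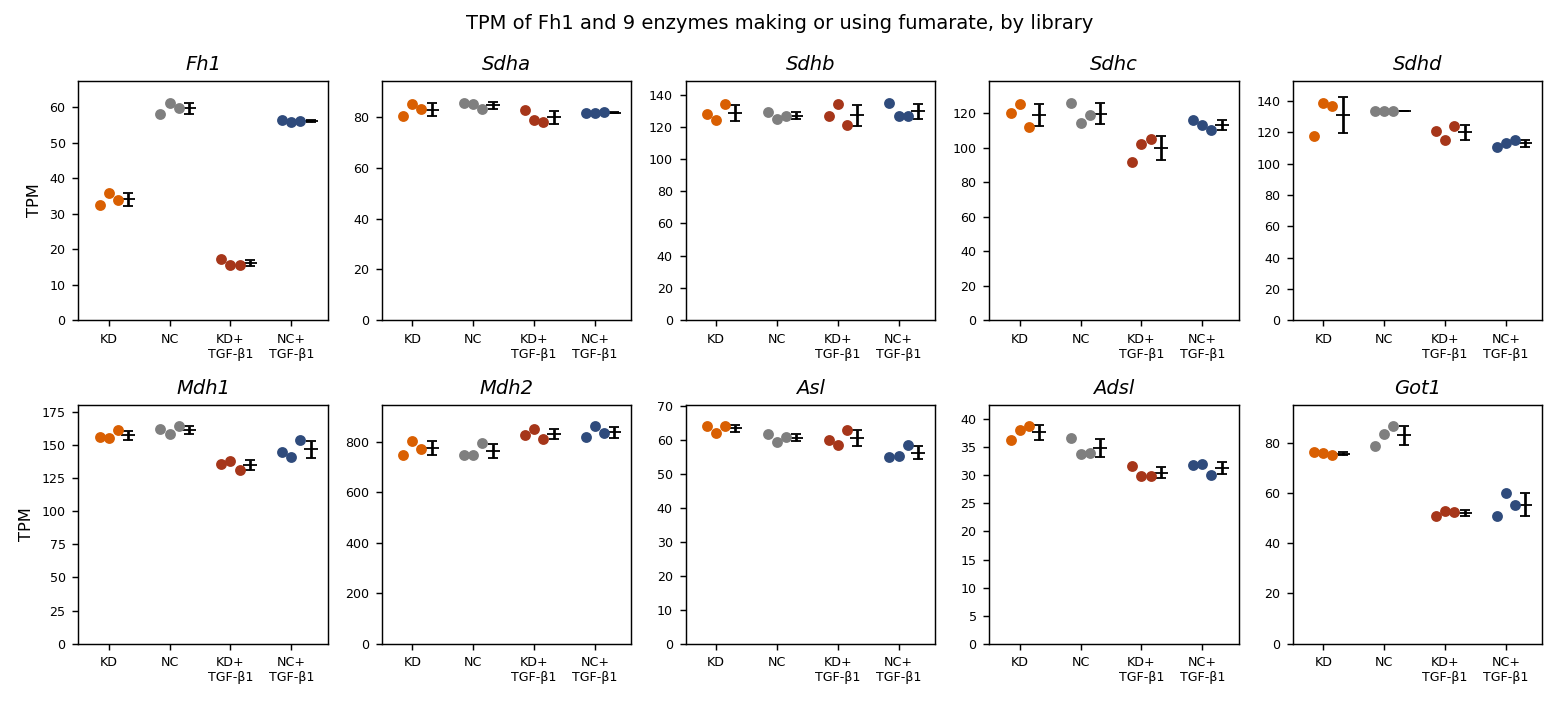
TPM (y axis, from 0) of each of the 10 genes in each library of the 4 groups (x axis), with a bar for the mean and SD of 3 libraries. Fh1 separates the silenced from the control libraries. Got1 separates the TGF-β1 libraries (50.7 to 60 TPM) from the basal ones (75 to 86.5 TPM), as do Mdh1 and Adsl (lower with TGF-β1) and Mdh2 (higher).

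Without TGF-β1, silencing moved no other enzyme of the 10 past the threshold. The call of Fh1 is 1 of 10, where 3.66% of all tested genes were called (2.22% lower and 1.44% higher). The other 9 had log2 changes of -0.15 to 0.10 with a median of -0.03, against a median of -0.01 over all tested genes. Sdha, the flavoprotein subunit that oxidises succinate, had 137, 144 and 141 CPM in KD against 146, 144 and 144 CPM in NC, and Sdhb, the iron-sulfur subunit, had 65.3, 63 and 68 CPM in KD against 65.7, 64.3 and 65.8 CPM in NC. The groups overlap for both. Their 95% intervals were -0.11 to 0.02 and -0.09 to 0.10 on the log2 scale. Sdhc and Sdhd, the membrane anchors of the complex, had intervals of -0.15 to 0.10 and -0.15 to 0.07.

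Asl, argininosuccinate lyase of the urea cycle, had 62, 59.1 and 60.5 CPM in KD against 59.4, 57.2 and 59.1 CPM in NC. Adsl, adenylosuccinate lyase of purine synthesis, had 82.2, 85.4 and 87.6 CPM in KD against 83.8, 76.2 and 78.7 CPM in NC, with a log2 change of 0.10 (adjusted p = 0.283). The libraries of the groups overlap for both lyases. Mdh1 was at -0.05 (95% interval -0.13 to 0.03) and Mdh2 at 0.00 (-0.07 to 0.08). Got1, the cytosolic aspartate aminotransferase, had 88.8, 87.8 and 86.9 CPM in KD against 92.3, 96.9 and 103 CPM in NC. These libraries do not overlap, as for 22.7% of all tested genes, and the log2 change of -0.15 (SE 0.0554, 95% interval -0.27 to -0.03) had an adjusted p of 0.183.

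With TGF-β1, silencing lowered Fh1 and, by less, Mdh1. The count is 2 of 10, where 11.4% of all tested genes were called (6.02% lower and 5.42% higher). Mdh1 had 148, 151 and 144 CPM in KD+TGF-β1 against 159, 156 and 168 CPM in NC+TGF-β1, without overlap, as for 32.2% of all tested genes. Its log2 change was -0.12 (SE 0.0362, adjusted p = 0.0403), and 13 of 20 alternative analyses took the call away, with adjusted p up to 0.161. Those included the fits without each library of KD, NC+TGF-β1 replicates 1 and 3, and each library of KD+TGF-β1, at 0.0579, 0.052 and 0.0665, at 0.0699 and 0.161, and at 0.101, 0.055 and 0.151. Each Mdh1 library splits evenly over 2 transcript rows (50% each), so the rows carry no separate information.

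Sdhc had 52.8, 59.6 and 61.2 CPM in KD+TGF-β1 against 67.5, 65.5 and 64.2 CPM in NC+TGF-β1, and Asl had 58.1, 57.9 and 60.8 CPM in KD+TGF-β1 against 53, 55.1 and 56.6 CPM in NC+TGF-β1. Neither pair of groups overlaps, as for 32.2% of all tested genes. The log2 change of Sdhc was -0.18 (SE 0.0587, adjusted p = 0.0597) and that of Asl 0.10 (SE 0.0395, adjusted p = 0.119). Sdhc passed without NC replicate 1 (adjusted p = 0.0256), without NC replicate 3 and without KD replicate 3 (0.0463 each), with only the 2 groups compared (0.0136) and with robust shrinkage (0.0419). The other 15 of 20 alternatives did not call it. Its log2 change ranged from -0.227 to -0.122 over them all, with adjusted p of 0.0136 to 0.223. The lowest Sdhc library, at 52.8 CPM, was KD+TGF-β1 replicate 1, which holds the pluripotency markers. The other 6 enzymes had log2 changes of -0.10 (Got1) to 0.08 (Sdhd), and the interaction was called for Fh1 only among the 10, where 0.888% of all tested genes were called (0.419% lower and 0.47% higher). The interaction of Adsl (-0.14, adjusted p = 0.428) and that of Sdhc (-0.16, adjusted p = 0.503) were the next in size below that of Fh1. Over the 19 alternatives that could give it, the interaction of Sdhc ranged from -0.219 to -0.096.

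**Figure D3:**
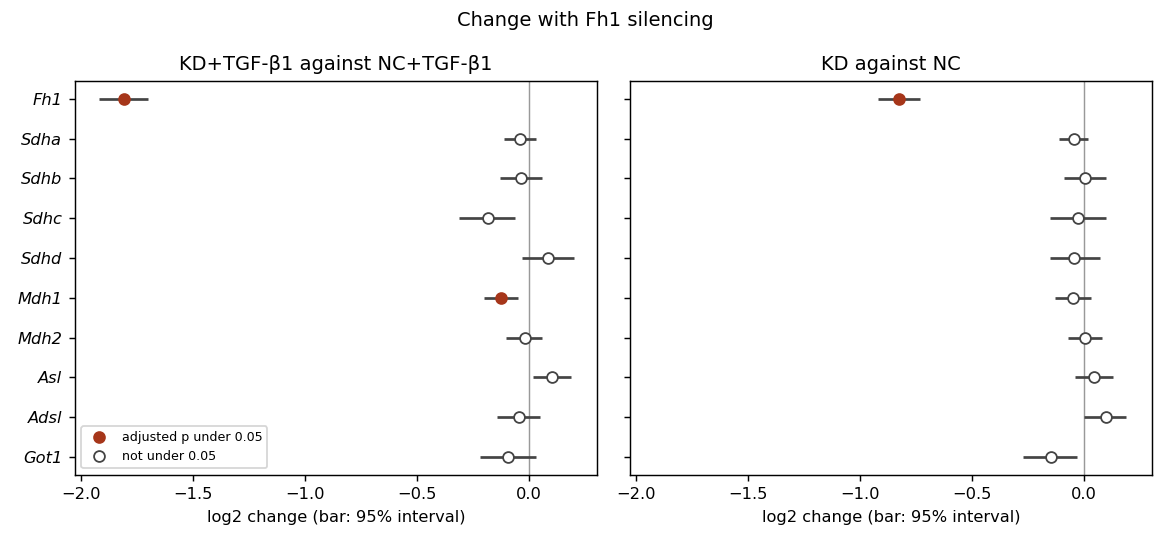
Log2 change (x axis) with its 95% interval for the 10 genes (rows) in KD+TGF-β1 against NC+TGF-β1 (left) and KD against NC (right), with filled points at an adjusted p under 0.05. Fh1 lies at -1.81 and -0.83, and the other 9 lie between -0.18 and 0.10.

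More of these enzymes were called with TGF-β1 than with silencing, as were more of all tested genes. In KD+TGF-β1 against KD, 5 of the 10 fell (Fh1 among them) and 1 rose, where 65.1% of all tested genes were called (33.7% lower and 31.4% higher). In NC+TGF-β1 against NC, 4 of the 10 fell and 1 rose, where 64.2% were called (34.7% lower and 29.4% higher). The counts of 6 and 5 of 10 are thus no higher than the background share. The 2 comparisons share no library with each other, but each shares libraries with the silencing comparisons.

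Got1 fell most among the enzymes other than Fh1. It had 58.4, 61.6 and 61.3 CPM in KD+TGF-β1 against 88.8, 87.8 and 86.9 CPM in KD, and 58.7, 70.6 and 64.3 CPM in NC+TGF-β1 against 92.3, 96.9 and 103 CPM in NC. No library overlaps in either pair, as for 72.9% of all tested genes in KD cells and 65.9% in NC cells. The log2 change was -0.54 in KD cells (SE 0.0574, adjusted p = 1.5e-06) and -0.59 in NC cells (SE 0.0569, adjusted p = 5.38e-07).

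Adsl had 70.7, 67.6 and 67.7 CPM in KD+TGF-β1 against 82.2, 85.4 and 87.6 CPM in KD, and 71.7, 73.3 and 67.5 CPM in NC+TGF-β1 against 83.8, 76.2 and 78.7 CPM in NC, with no overlap in either pair. The same held for 72.9% of all tested genes in KD cells and 65.9% in NC cells. It fell by 0.31 on the log2 scale in KD cells (SE 0.045, adjusted p = 3.3e-05) and by 0.17 in NC cells (SE 0.0451, adjusted p = 0.00492).

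The 2 malate dehydrogenases moved in opposite directions with TGF-β1. Mdh2 had 532, 553 and 528 CPM in KD+TGF-β1 against 484, 515 and 496 CPM in KD, and 532, 561 and 542 CPM in NC+TGF-β1 against 483, 484 and 523 CPM in NC, again with no overlap. Mdh1 had 148, 151 and 144 CPM in KD+TGF-β1 against 171, 169 and 176 CPM in KD, and 159, 156 and 168 CPM in NC+TGF-β1 against 178, 173 and 183 CPM in NC, without overlap in either pair. Of all tested genes, 72.9% had no overlap in KD cells and 65.9% in NC cells. Mdh1 fell by 0.22 on the log2 scale in KD cells (adjusted p = 9.65e-05) and by 0.14 in NC cells (adjusted p = 0.00292), while Mdh2 rose by 0.11 (adjusted p = 0.0181) and by 0.13 (adjusted p = 0.00597). The call of Mdh2 in KD cells was lost without KD replicate 1 (adjusted p = 0.0829), KD replicate 3 (0.0649) or KD+TGF-β1 replicate 2 (0.0795).

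Of the succinate dehydrogenase subunits, Sdhc fell in KD cells (log2 change -0.24, SE 0.0583, adjusted p = 0.00247) and was at -0.08 in NC cells (adjusted p = 0.235). Its call in KD cells was kept in all 20 alternatives, at -0.281 to -0.177 (adjusted p 0.000751 to 0.0149). Sdhd had 72.1, 73.6 and 75.1 CPM in NC+TGF-β1 against 87.1, 86.8 and 88 CPM in NC, and 78, 74.8 and 81.2 CPM in KD+TGF-β1 against 76.5, 89.1 and 88.4 CPM in KD, where KD replicate 1 lies within the range of the treated libraries. It fell in NC cells (-0.25, SE 0.0522, adjusted p = 0.000862) and was at -0.12 in KD cells (adjusted p = 0.0586), where it passed without KD replicate 1 (0.0015) or KD+TGF-β1 replicate 3 (0.0432), with only the 2 groups compared (0.0488) and with robust shrinkage (0.0466). Neither gene had an interaction that passed, so the 2 cell states are not shown to differ. Sdha (-0.05 in KD and -0.06 in NC cells) and Sdhb (-0.00 and 0.03) did not pass. Asl was at -0.04 in KD cells and at -0.09 in NC cells (adjusted p = 0.0514), where it passed without NC replicate 2 (0.0462) or NC+TGF-β1 replicate 3 (0.0354), and with limma on log2(TPM + 1) (0.0177) and log2(TPM + 0.1) (0.0179).

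**Figure D4:**
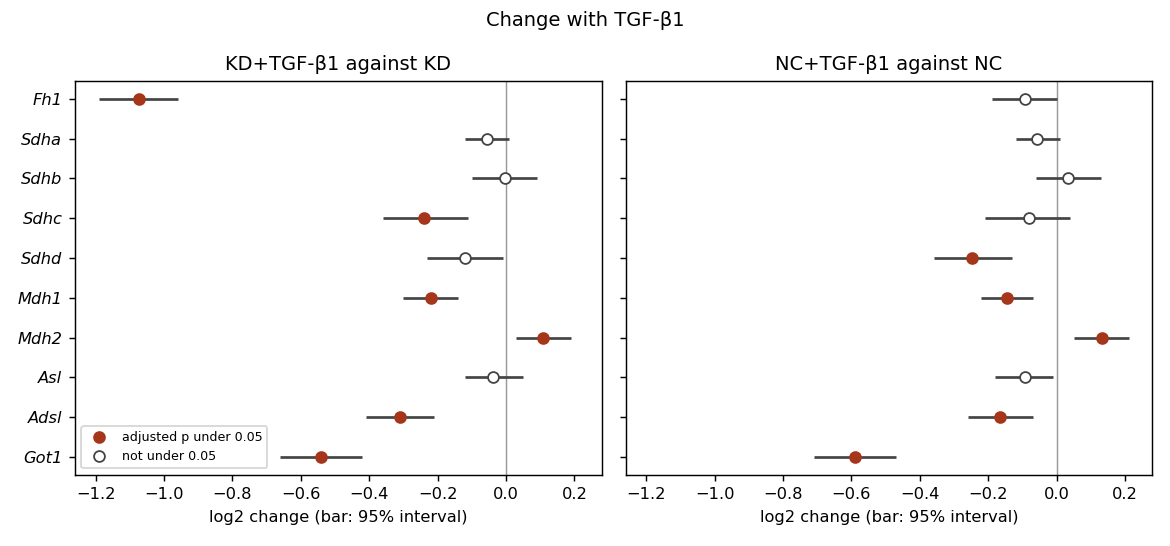
Log2 change (x axis) with its 95% interval for the 10 genes (rows) in KD+TGF-β1 against KD (left) and NC+TGF-β1 against NC (right), with filled points at an adjusted p under 0.05. Got1 lies at -0.54 and -0.59 and Mdh2 at 0.11 and 0.13, while Fh1 lies at -1.07 in silenced and -0.09 in control cells.

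The shares of the transcript rows of Asl differed more between the TGF-β1 and the basal libraries than between silenced and control libraries. The curated transcript held 72.7% of Asl TPM in KD+TGF-β1 and 70.7% in NC+TGF-β1, and 60.6% in KD and 59.8% in NC. A predicted transcript held 24.7% in KD+TGF-β1 and 26.1% in NC+TGF-β1, and 36.3% in KD and 36.5% in NC. In TPM, the predicted transcript had 13.85, 9.87 and 21.14 in KD+TGF-β1, 16.55, 10.52 and 17.06 in NC+TGF-β1, 19.25, 22.74 and 27.15 in KD, and 21.96, 20.17 and 24.35 in NC. The KD+TGF-β1 and KD libraries overlap, the NC+TGF-β1 and NC libraries do not, and the shares were not tested.

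Of the pathways around these enzymes, a list of 6 genes held 4 of the malate-aspartate shuttle (Got2, Slc25a11, Slc25a12 and Slc25a13) and 2 other mitochondrial carriers (Slc25a10 and Slc25a1). All 6 fell in KD+TGF-β1 against KD, with a median log2 change of -0.69, and all 6 fell in NC+TGF-β1 against NC, with a median of -0.59, where 33.7% and 34.7% of all tested genes were called lower. The medians over all tested genes were -0.01 and -0.03. Slc25a13, the aspartate-glutamate carrier citrin, averaged 2.91 ± 0.296 CPM in KD+TGF-β1 and 14.5 ± 1.18 CPM in KD, and 3.36 ± 0.519 CPM in NC+TGF-β1 and 15.9 ± 2.36 CPM in NC (SD, n = 3 each). Its log2 change was -2.32 in KD cells (SE 0.143, adjusted p = 4.34e-09) and -2.24 in NC cells (SE 0.137, adjusted p = 4.24e-09). Slc25a12, the other aspartate-glutamate carrier, fell by 0.85 and 0.88 on the log2 scale, Slc25a11, the oxoglutarate-malate carrier, by 0.52 and 0.41, and Slc25a10, the dicarboxylate carrier, by 0.97 and 0.77. Got2, the mitochondrial aspartate aminotransferase, fell by 0.28 and 0.29, and Slc25a1, the citrate carrier, by 0.40 and 0.37. Slc25a10 also fell with silencing in TGF-β1 libraries (-0.25, SE 0.0458, adjusted p = 0.00347), the only called gene of the list there, and none was called in KD against NC. The shares of all tested genes called were 11.4% and 3.66%.

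Of 12 other TCA cycle enzymes, 7 fell and 2 rose with TGF-β1 in KD and again in NC cells, where 65.1% and 64.2% of all tested genes were called. Among the falls, Dld in KD cells (-0.21, adjusted p = 0.0367) lost its call in 8 of 20 alternatives, among them robust shrinkage (0.0819) and the fits without KD replicate 2 or 3 (0.0918 and 0.0655) or KD+TGF-β1 replicate 1, 2 or 3 (0.0702, 0.112 and 0.0558). Dld in NC cells lost it with only the 2 groups compared (0.0507), and Idh3a in KD cells without KD+TGF-β1 replicate 2 (0.0604). Ogdh and Dlst, components of the oxoglutarate dehydrogenase complex, fell by 0.47 and 0.45 on the log2 scale in KD cells and by 0.37 and 0.35 in NC cells. Sucla2, a subunit of succinyl-CoA synthetase, rose by 0.32 in KD cells and 0.22 in NC cells. With silencing, only Dlst was called in KD+TGF-β1 against NC+TGF-β1 (-0.21, SE 0.0334, adjusted p = 0.00126) and 0 of the 12 in KD against NC. Of all tested genes, 11.4% and 3.66% were called in these silencing comparisons. Of 4 succinate dehydrogenase assembly factors, 1 was called with TGF-β1 in KD and again in NC cells, a share below the 65.1% and 64.2% of all tested genes. It was Sdhaf1, which helps to insert iron-sulfur clusters into Sdhb, and it fell (-0.64 in KD cells, adjusted p = 5e-06, and -0.51 in NC cells, adjusted p = 6.11e-05). With silencing, 0 of 4 were called in either setting.

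A list of enzymes around malate and oxaloacetate held 8 tested genes, among them Aco1 and Idh1, which act on neither. In it, Pck2, mitochondrial phosphoenolpyruvate carboxykinase, averaged 66.3 ± 2.31 CPM in KD+TGF-β1, 60.8 ± 4.08 in NC+TGF-β1, 165 ± 1.95 in KD and 184 ± 2.4 in NC (SD, n = 3 each). It fell with silencing without TGF-β1 (-0.16, SE 0.0401, adjusted p = 0.0476) and its interaction was 0.28 (adjusted p = 0.0485). The first call was lost without every library except NC replicate 1 and NC+TGF-β1 replicates 2 and 3 (adjusted p 0.0558 to 0.166), and the interaction without every library except NC replicate 1 and NC+TGF-β1 replicate 3 (0.0542 to 0.136). The first was also lost with DESeq2 (0.0616), its size factors (0.0691), no filter (0.0531), the replicate block (0.0906), limma on either pseudocount (0.18 and 0.188) and only the 2 groups compared (0.068). The interaction was lost with DESeq2's size factors (0.06), the block (0.11) and limma (0.13 and 0.139). Acly, which makes cytosolic oxaloacetate and acetyl-CoA from citrate, rose with silencing in KD against NC (0.11, adjusted p = 0.0399), and Idh1, cytosolic isocitrate dehydrogenase, fell in KD+TGF-β1 against NC+TGF-β1 (-0.17, adjusted p = 0.0263). With silencing, 1 of the 8 thus rose and 1 fell in KD against NC, and 1 fell in KD+TGF-β1 against NC+TGF-β1. The shares of all tested genes called there were 3.66% and 11.4%. Acly lost its call without every library except NC replicate 3 and NC+TGF-β1 replicates 2 and 3 (adjusted p 0.0538 to 0.14), and with no filter (0.0605), the block (0.0554) and only the 2 groups compared (0.0968). Idh1 lost it without NC+TGF-β1 replicate 2 (0.103) or KD+TGF-β1 replicate 1, 2 or 3 (0.0857, 0.0597 and 0.0778). With TGF-β1, 2 of the 8 rose and 4 fell in KD cells, and 3 rose and 3 fell in NC cells, where 65.1% and 64.2% of all tested genes were called. The fall of Aco1 in KD cells (-0.10, adjusted p = 0.0413) was lost in 10 of 20 alternatives, among them DESeq2 (0.225) and the fits without NC replicate 1 (0.0583), KD replicate 1, 2 or 3 (0.0836, 0.122 and 0.0776), NC+TGF-β1 replicate 3 (0.0511) or KD+TGF-β1 replicate 3 (0.172). The rise of Me3 in NC cells (0.23, adjusted p = 0.0161) was lost with DESeq2 (0.0947) and without NC replicate 2 (0.0522) or NC+TGF-β1 replicate 1 (0.134). Pcx, pyruvate carboxylase, fell by 0.98 on the log2 scale in KD cells and by 0.77 in NC cells, and Idh1 rose by 0.59 and 0.62.

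In arginine metabolism, of which 5 of 11 listed genes were tested besides Asl, Oat and Slc25a15 fell with silencing in both settings, though in KD against NC the calls depended on the analysis. Oat, ornithine aminotransferase, averaged 82.1 ± 1.78 CPM in KD and 94.5 ± 4.15 CPM in NC (SD, n = 3 each; log2 change -0.20, adjusted p = 0.00952), and its change in the TGF-β1 libraries was -0.27 (adjusted p = 0.000731). Slc25a15, the mitochondrial ornithine carrier, was at -0.34 (adjusted p = 0.0248) and -0.46 (adjusted p = 0.00282). In KD against NC, the call of Oat was lost without KD replicate 1 (adjusted p = 0.058), and that of Slc25a15 without NC replicate 3 (0.0627) or KD replicate 1, 2 or 3 (0.1, 0.117 and 0.0509). With only the 2 groups compared both were lost (0.068 for Oat and 0.0637 for Slc25a15), and Slc25a15 was also lost with the replicate block (0.0574) and DESeq2 (0.0625). Arg1, an arginase, rose in KD+TGF-β1 against NC+TGF-β1 (0.57, adjusted p = 0.00981), at low levels of 6.11 ± 0.905 CPM in KD+TGF-β1 and 4.12 ± 0.409 CPM in NC+TGF-β1 (SD, n = 3 each). With silencing, 2 of the 5 thus fell in KD against NC, and 2 fell and 1 rose in KD+TGF-β1 against NC+TGF-β1. The shares of all tested genes called there were 3.66% and 11.4%. With TGF-β1, 4 fell and 1 rose in KD cells and 3 fell and 1 rose in NC cells, where 65.1% and 64.2% of all tested genes were called. The fall of Slc25a15 in NC cells (-0.19, adjusted p = 0.0435) was lost in 14 of 20 alternatives, among them DESeq2 (0.222), the block (0.067) and the fits without each library except NC replicate 2, KD replicate 2, NC+TGF-β1 replicate 2 and KD+TGF-β1 replicate 1 (0.0526 to 0.216). Arg2, the mitochondrial arginase, fell by 1.93 and 2.47 on the log2 scale.

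In purine synthesis and the purine nucleotide cycle, 16 of 17 listed genes were tested besides Adsl. Impdh1, which makes xanthosine monophosphate, rose with silencing by 0.13 on the log2 scale in KD against NC (adjusted p = 0.0437) and by 0.25 in KD+TGF-β1 against NC+TGF-β1 (adjusted p = 0.000321). In the TGF-β1 libraries Hprt, a purine salvage enzyme, rose (0.17, adjusted p = 0.0183) and Pfas, an enzyme of the de novo pathway, fell (-0.16, adjusted p = 0.0146). Of the 16, silencing thus raised 1 without the cytokine, and raised 2 and lowered 1 with it. The shares of all tested genes called in these comparisons were 3.66% and 11.4%. In KD against NC, Impdh1 lost its call without every library except NC replicate 3, NC+TGF-β1 replicate 2 and KD+TGF-β1 replicate 3 (adjusted p 0.0554 to 0.144), and with no filter (0.0733), DESeq2 (0.0673), the block (0.0868) and only the 2 groups compared (0.109). In KD+TGF-β1 against NC+TGF-β1, Hprt lost its call without NC+TGF-β1 replicate 2 or 3 (0.0674 and 0.0572) or KD+TGF-β1 replicate 1 or 3 (0.0631 and 0.0821), and Pfas without NC+TGF-β1 replicate 1 (0.0559) or KD+TGF-β1 replicate 2 or 3 (0.0543 and 0.0504) and with DESeq2 (0.0556). With TGF-β1, 9 fell and 4 rose in KD cells and 11 fell and 2 rose in NC cells, where 65.1% and 64.2% of all tested genes were called. Of these calls, the rise of Ampd2 in KD cells (0.11, adjusted p = 0.0364) was lost in 9 of 20 alternatives, among them DESeq2 (0.0522) and the fits without KD replicate 2 or 3 (0.16 and 0.0605) or KD+TGF-β1 replicate 1, 2 or 3 (0.0823, 0.0878 and 0.0555). The fall of Prps2 in NC cells (-0.29, adjusted p = 0.0252) was lost in 7, among them the fits without NC replicate 1 (0.102) or NC+TGF-β1 replicate 2 or 3 (0.0512 and 0.083), and that of Impdh2 in NC cells (-0.12, adjusted p = 0.00769) with DESeq2 (0.056) and without NC replicate 3 (0.073). Paics, a de novo enzyme whose product Adsl cleaves, fell by 0.65 on the log2 scale in KD and by 0.68 in NC cells, and Ampd3, an AMP deaminase, fell by 1.09 in NC cells (adjusted p = 2.1e-09) and also fell in KD cells (adjusted p = 5.36e-09). Adss, which makes the adenylosuccinate that Adsl cleaves, fell by 0.64 in KD and by 0.72 in NC cells.

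Of 5 genes of tyrosine breakdown, the other route to fumarate, 2 were tested, and Gstz1, the maleylacetoacetate isomerase, fell with TGF-β1 (-0.57 in KD and -0.73 in NC cells) but was not called with silencing. With TGF-β1, 65.1% and 64.2% of all tested genes were called. Of 4 genes that use aspartate, 2 were tested. Asns, asparagine synthetase, fell with silencing in KD against NC (-0.17, SE 0.0374, adjusted p = 0.022) and rose in KD+TGF-β1 against NC+TGF-β1 (0.17, SE 0.0386, adjusted p = 0.0127), with an interaction of 0.34 (adjusted p = 0.00921). Asns was the only gene of the 2 called in each of these, where 3.66%, 11.4% and 0.888% of all tested genes were called. The fall was lost without NC replicate 2 or 3 (adjusted p = 0.1 and 0.0652) or KD replicate 2 or 3 (0.107 and 0.156), and with the block (0.0506), limma on either pseudocount (0.0547 and 0.0545) and only the 2 groups compared (0.116). The rise was lost without NC+TGF-β1 replicate 3 (0.0591) or KD+TGF-β1 replicate 1 (0.0587), and the interaction without KD replicate 3 (0.0756). Its levels were 155 ± 4.82 CPM in KD+TGF-β1, 138 ± 4.64 in NC+TGF-β1, 209 ± 5.21 in KD and 235 ± 8.87 in NC (SD, n = 3 each). Cad, which starts pyrimidine synthesis from aspartate, fell with TGF-β1 (-0.35 in KD and -0.34 in NC cells).

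The genes whose profile over the 12 libraries lay nearest to that of Fh1 were Gpd1l, Gja1, E2f8, Aldh1a1 and Fbxw11. Likeness is the root mean square difference between log2 CPM profiles, each centred on its mean, and 9588 genes with at least 5 CPM on average were compared. The distances were 0.417, 0.444, 0.445, 0.484 and 0.486, against 0.493 for the next gene and a median of 0.769. The other 9 enzymes lay at 0.655 (Got1) to 0.786 (Asl). On log2(TPM + 1), 4 of the 5 were again among the 5 nearest.

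Gpd1l, a glycerol-3-phosphate dehydrogenase-like protein, averaged 55.7 ± 0.949 CPM in KD and 74 ± 0.854 CPM in NC, and 38.9 ± 1.09 CPM in KD+TGF-β1 and 65.7 ± 1.59 CPM in NC+TGF-β1 (SD, n = 3 each). Its log2 changes with silencing were -0.41 (adjusted p = 1.57e-05) and -0.76 with TGF-β1 (adjusted p = 3.96e-08), with an interaction of -0.35 (adjusted p = 0.00692). Fbxw11, an F-box protein of a ubiquitin ligase, had -0.43 and -0.67 with an interaction of -0.25 (adjusted p = 0.0147), lost without KD replicate 1 (0.0505) or 2 (0.0514). Gja1, the gap junction protein connexin 43, and E2f8, a transcription factor of the cell cycle, fell in both silencing comparisons without a called interaction, although that of Gja1 (-0.16, adjusted p = 0.48) passed without NC replicate 1 (0.0305). Aldh1a1, a retinal dehydrogenase, fell in KD+TGF-β1 against NC+TGF-β1 (-0.67, adjusted p = 0.00808) but not past the threshold in KD against NC (-0.22, adjusted p = 0.372). In NC+TGF-β1 against NC, where Fh1 did not pass (-0.09, adjusted p = 0.072), 4 of the 5 fell. They were Gpd1l (-0.17, adjusted p = 0.000656), Gja1 (-0.43, adjusted p = 1.19e-05), E2f8 (-0.63, adjusted p = 4.05e-08) and Aldh1a1 (-0.48, adjusted p = 0.00329). Fbxw11 was at 0.01 (adjusted p = 0.734). Of all tested genes, 64.2% were called in that comparison. The likeness was chosen to match the pattern of Fh1, so these values describe it.

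**Figure D5:**
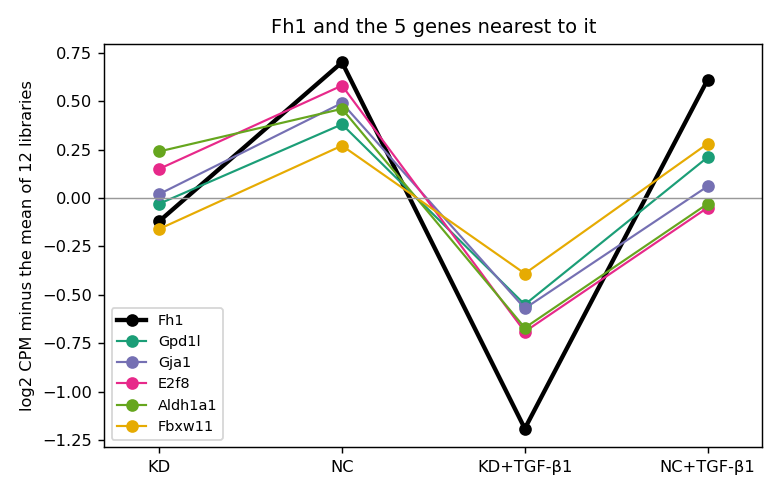
Mean log2 CPM, centred on the mean of all 12 libraries (y axis), of Fh1 and the 5 genes nearest to it in the 4 groups (x axis). Fh1 lies at -0.12 in KD and 0.70 in NC, and at -1.19 in KD+TGF-β1 and 0.61 in NC+TGF-β1. The other 5 have smaller changes with silencing, but Gpd1l, Gja1, E2f8 and Aldh1a1 differ more than Fh1 between NC and NC+TGF-β1.

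An earlier analysis of these data picked 4 short words of 7 letters in the 3' UTRs of genes lower in both silencing comparisons. The first is TCTACAC. Shifted by 1 letter either way it gives the next pair of words, which are CTACACA on the right and, on the left, TTCTACA. The fourth word of that analysis is GACACCT. The words were searched here in the annotated transcripts of the enzymes (GENCODE M21 on GRCm38), as written and as their reverse complement. The first 3 words are shifted copies of each other, so their matches are not independent. The Fh1 transcript holds the reverse complement of TCTACAC and the word GACACCT close together in coding exon 2, on the minus strand at chr1:175619146-175619169, shown here because it is the only such pair in the silenced gene, with both words in capitals:
Fh1: tccGTGTAGAgttcGACACCTttg
The words span 18 bases with 4 bases between them. Of 21877 protein-coding genes searched, 4 hold the pair in this order within 14 bases, 1 of them (Fh1) with this gap, and 850 hold both words anywhere. The order, orientation and gap were those of the Fh1 stretch, so the match of Fh1 was fixed in advance. Other orders, orientations and word pairs were not searched, so these counts do not show how rare such a pair is. CTACACA and TTCTACA are not in the Fh1 transcript in either orientation, and GACACCT occurs in it once more, in the coding part. What these words have to do with the level of Fh1 was not tested.

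Among the other enzymes the 3' UTRs of Sdhc and Adsl hold a word as written, shown with their neighbours and with the word in capitals (Sdhc at chr1:171128869-171128891, minus strand, and Adsl at chr15:80968913-80968935, plus strand, GRCm38):
Sdhc: tggttatgGACACCTagcaccag
Adsl: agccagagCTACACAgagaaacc
Sdhc was at -0.03 in KD against NC and -0.18 in KD+TGF-β1 against NC+TGF-β1, and Adsl at 0.10 and -0.04, none of them called. Asl holds CTACACA in its coding part, and Sdha, Sdhb, Sdhd, Mdh1, Mdh2 and Got1 hold none of the words in either orientation in the transcript searched. Of the 5 genes nearest to Fh1, 4 hold a word in the 3' UTR, among them Gpd1l (chr9:114900067-114900089, minus strand) and Fbxw11 (chr11:32744898-32744920, plus strand):
Gpd1l: ggctcagaGACACCTagattaga
Fbxw11: ccaaacgaCTACACAgcgtcttc
E2f8 holds words in its coding part only. Of 11296 tested genes with an annotated 3' UTR, 28.5% hold at least 1 of the 4 words there, against 68.1% of the 166 genes lower in both silencing comparisons and 23.3% of the 103 genes higher in both. The words were picked in the genes lower in both, so these shares are a description and no test of them was made. Of the 5 genes nearest to Fh1, Gpd1l, Gja1, E2f8 and Fbxw11 belong to that set. All 5 were also chosen for profiles like that of Fh1, so the 4 with a word are likewise a description.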

How the data were processed

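Basal and TGF-β1 libraries come in 2 separate tables of RefSeq transcripts that the authors deposited. Per the file headers they hold estimated counts (expected counts, not whole) and TPM. The tools named in the submitters' processing notes are RSEM 1.3.1, HISAT2, Bowtie2 and DESeq2 1.34.0, with no role given. They list hg38, a human build, although the tables hold mouse transcripts. The 24 FPKM and normalized count columns were not used here. Both units were added up over the transcripts of a gene by Entrez ID, and the counts were then rounded. Of 15802 genes in both tables, 99.3% had a RefSeq symbol (GRCm38.p6).

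edgeR 4.0.16 (R 4.3.3) tested 11707 genes left by filterByExpr: TMM scaling (0.978 to 1.02), 1 coefficient per group over 12 libraries, quasi-likelihood F-tests (8 degrees of freedom for the residuals), Benjamini-Hochberg adjusted p under 0.05. The biological coefficient of variation was 4.6%. CPM used a prior count of 2 for logs. Intervals are 95% and assume the fit; those of counts would cover counting error only. Scripts were tested on simulated data.

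Alternatives tried were edgeR with DESeq2's size factors, no filter, DESeq2 1.42.0, the replicate number as a block, limma 3.58.1 on log2(TPM + 1) and log2(TPM + 0.1), only the 2 groups compared, robust shrinkage (added after seeing the data) and leaving out each library. The members, lists and words were chosen with earlier results of these data known. Genes were named by a rule: the 10 members, up to 4 called genes of each list and comparison by size of change, and the 5 genes nearest to Fh1.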

Additional observations from a re-analysis of the deposited data

Results flagged for a closer look

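The silencing effect on Fh1 differed between the settings by the test of the difference itself. The log2 change was -1.81 in KD+TGF-β1 against NC+TGF-β1 and -0.83 in KD against NC, and the interaction was -0.98 (adjusted p = 8.18e-06 by edgeR's quasi-likelihood test). All 3 KD+TGF-β1 libraries lay below all 3 KD libraries, and 72.9% of all tested genes had no overlap in that pair, in either direction. The settings come from separate deposited tables, so TGF-β1 and the table cannot be told apart.

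Of the other genes named, 4 had a called interaction by the same test, which called 0.888% of all tested genes. Pck2 was at 0.12 in KD+TGF-β1 against NC+TGF-β1 and -0.16 in KD against NC, with an interaction of 0.28 (adjusted p = 0.0485). That call was lost in 14 of 19 alternatives. Asns was at 0.17 with TGF-β1 and -0.17 without it, with an interaction of 0.34 (adjusted p = 0.00921), lost without KD replicate 3 (0.0756). Gpd1l was at -0.76 with TGF-β1 and -0.41 without it, with an interaction of -0.35 (adjusted p = 0.00692). Fbxw11 was at -0.67 with TGF-β1 and -0.43 without it, with an interaction of -0.25 (adjusted p = 0.0147), lost without KD replicate 1 (0.0505) or 2 (0.0514). Gpd1l and Fbxw11 were chosen for profiles like that of Fh1, so their interactions are a description. Pck2 and Asns were named because they were called within their lists, so the 4 are a selected set.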

How the results depend on the processing

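Fh1 kept its direction and call in both silencing comparisons, in KD+TGF-β1 against KD and in the interaction under every alternative run. The number of the 10 enzymes called in KD+TGF-β1 against NC+TGF-β1 was 2, and was 1 with no filter on low counts, with DESeq2, with the replicate number as a block and with limma on either pseudocount, since Mdh1 dropped out. It was 3 with only the 2 groups compared and with robust shrinkage, where Sdhc passed. Leaving out each library gave 1 to 3. The replicate numbers did not pair the libraries (correlations of same-numbered deviations -0.10 to 0.07), and the block left the called count at 1 in KD against NC. Over all genes, the calls in KD against NC were 429, against 152 with only the 2 groups compared and 212 to 647 without 1 library. In KD+TGF-β1 against NC+TGF-β1 they were 1340, against 889 with DESeq2 and 783 to 1732 without 1 library, and in the interaction 104, against 54 with the block and 37 (without KD replicate 3) to 146 (without NC replicate 3).

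Of 128 values of the other named genes, 104 kept their direction and call under every alternative that gave a value. Signs turned only for values that neither the reported fit nor the alternative called. Sdhb in KD+TGF-β1 against KD was at 0.010 with DESeq2's size factors, 0.012 with DESeq2 and 0.000 with only the 2 groups compared, and -0.042 to 0.029 without 1 library. The interaction of Sdha was -0.011 with DESeq2's size factors, -0.009 with DESeq2, -0.004 with limma on either pseudocount and -0.017 to 0.02 without 1 library. Without 1 library, KD against NC ranged from -0.006 to 0.035 for Sdhb, -0.062 to 0.035 for Sdhc, -0.082 to 0.024 for Sdhd and -0.02 to 0.066 for Mdh2, KD+TGF-β1 against NC+TGF-β1 ranged from -0.040 to 0.003 for Mdh2, the interaction from -0.085 to 0.001 for Mdh2 and -0.012 to 0.121 for Got1, and NC+TGF-β1 against NC from -0.004 to 0.061 for Fbxw11. The cause was not tested. Fh1 rests on 240 to 992 counts in a library, which limits the precision of its level.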
